A study of Mus musculus with 6 samples.

Results

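The 45 genes described here encode glucose carriers, the enzymes of glycolysis with 2 regulators of its phosphofructokinase step, lactate dehydrogenase, the pentose phosphate pathway, the TCA cycle with the cytosolic relatives of its enzymes, and pyruvate carboxylase. They were picked by gene symbol, with no measured value in the rule, but with earlier results of these data known. All 45 are among the 45706 genes of the deposited gene-level table. The RNA-seq data hold 6 libraries of mouse macrophages grown from bone marrow, primary cells, with 2 libraries in each of 3 groups. ACD1 cells had RANKL and sodium acetate for 1 day, D1 cells had RANKL alone for 1 day, and D0 cells were untreated macrophages at day 0. RANKL is the cytokine that drives macrophages to become osteoclasts, the cells that resorb bone, and acetate is a short-chain fatty acid. The sources used here do not give doses, the mouse strain or its age. There is no day 1 group without RANKL and no other sodium salt, so RANKL and the day in culture cannot be told apart in D1 against D0, and neither can acetate and sodium in ACD1 against D1. Nothing in the labels says that the libraries of a group came from separate cultures or animals, so p-values measure the spread between these libraries, which may be technical.

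Glycolysis splits glucose into pyruvate in the cytosol and is known to run fast in activated macrophages, where much of the pyruvate leaves as lactate. The pentose phosphate pathway branches off after hexokinase and supplies NADPH and ribose. The TCA cycle oxidises acetyl-CoA in the mitochondrial matrix to feed the respiratory chain, on which osteoclasts, cells rich in mitochondria, are known to depend. Acetate can enter the cycle as acetyl-CoA without passing through glycolysis.

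Total expected counts lay between 9997527 and 11254961 per library, which limits the precision of the weakly expressed members. Against the macrophage label, 8 macrophage markers summed to 12236 and 12051 CPM in ACD1, 5721 and 5788 CPM in D1, and 19486 and 19141 CPM in D0. Most of that sum was Lyz2, with 9755 and 9645 CPM in ACD1, 3924 and 3967 CPM in D1, and 12803 and 12539 CPM in D0. All 8 fell in D1 against D0 and rose in ACD1 against D1. The Cd68 call in ACD1 against D1 was lost with limma on log2(TPM + 0.1) and log2(TPM + 1) (limma adjusted p = 0.189 on both). That call was also lost without ACD1 replicate 1, D1 replicate 1 or D1 replicate 2. An osteoclast precursor list of 8 genes, among them Acp5, Ctsk and Nfatc1, summed to 856 and 811 CPM in ACD1, 3109 and 3105 CPM in D1, and 75.3 and 71.3 CPM in D0. All 8 rose in D1 against D0 and fell with acetate. Markers of B cells, T or NK cells, erythroid cells and dendritic cells summed to at most 1.78 CPM in any library, with 2 erythroid and 2 T or NK markers at 0 in every library. Endothelial markers summed to 24.04 and 18.7 CPM in ACD1, 7.54 and 11.03 CPM in D1, and 24.9 and 24.5 CPM in D0, lowest in D1. Neutrophil markers summed to 114 and 111 CPM in ACD1, 108 and 108 CPM in D1, and 133 and 139 CPM in D0, highest in D0. Stromal markers summed to 9.597 and 10.8 CPM in ACD1, 13.03 and 12.7 CPM in D1, and 5.54 and 5.65 CPM in D0, lowest in D0 and highest in D1. Among them Dcn was at 0 in both D0 libraries and between 6.01 and 7.62 CPM in the day 1 libraries. Col1a1 was instead lowest in ACD1, at 1.84 and 1.07 CPM, with 2.66 and 2.69 CPM in D1 and 3.27 and 2.41 CPM in D0. Of 3 stromal genes tested, 1 was called higher and 1 lower in ACD1 than in D0. The latter call, that of Col1a1, was lost with DESeq2 and with only the 2 groups compared. It was also lost without ACD1 replicate 2, D1 replicate 1, D1 replicate 2 or D0 replicate 1. The order of the sum was thus not that of each marker. The part of these shifts in the results below was not tested, and in bulk RNA fewer cells of a type cannot be told apart from less RNA per cell.

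Together the 45 genes took 2.05% and 2.04% of all counts in ACD1, 1.93% and 1.97% in D1, and 1.696% and 1.67% in D0. With acetate and RANKL the sum was thus highest in both libraries, and it was lowest at day 0. Levels are compared between genes in TPM, which corrects for transcript length, and within a gene in CPM, read counts per TMM-adjusted library size. In TPM, Gapdh was the most abundant member in every library, with 4588 and 4277 TPM in ACD1, 4168 and 4114 TPM in D1, and 3229.9 and 3184 TPM in D0. The heart-type lactate dehydrogenase gene Ldhb had 2.5 and 2.13 TPM in ACD1, 2.37 and 1.51 TPM in D1, and 4.12 and 4.26 TPM in D0. The lowest summed TPM in every library belonged to the glucose carriers, hexokinase and phosphofructokinase. This ranking covers the carriers, the reactions of glycolysis and lactate dehydrogenase, without the 2 regulators of phosphofructokinase. Summed over isoenzymes, hexokinase reached 116 and 127 TPM in ACD1, 101 and 100.2 TPM in D1, and 384 and 369 TPM in D0. Phosphofructokinase reached 124 and 142 TPM in ACD1, 94.8 and 108 TPM in D1, and 134 and 128 TPM in D0. Glyceraldehyde-3-phosphate dehydrogenase, enolase and pyruvate kinase each lay at or above 918 TPM in every library.

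**Figure D1:**
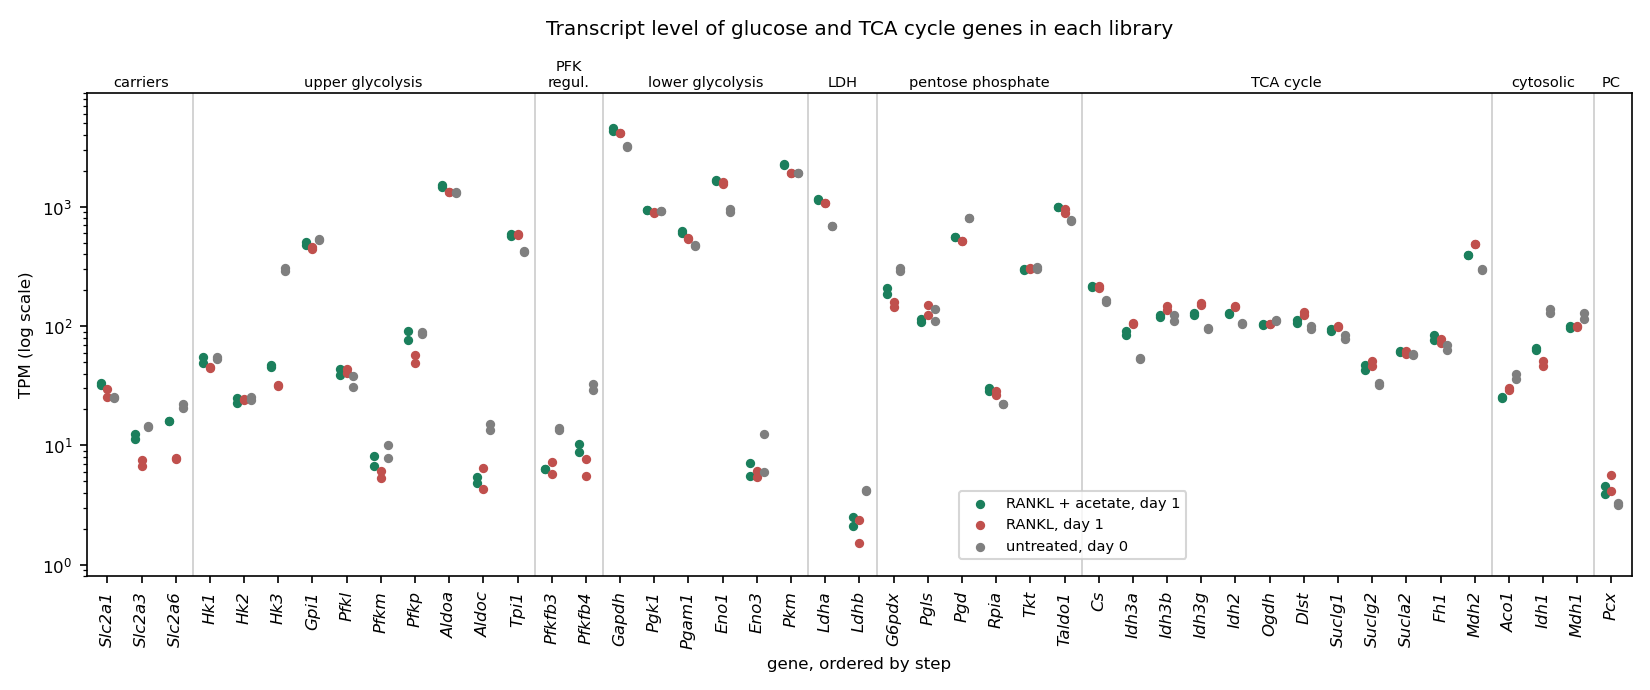
Level of each of the 45 genes in TPM (log axis) in the 6 libraries, ordered by step from glucose carriers to pyruvate carboxylase (PC), with ACD1, D1 and D0 side by side at each gene and 1 point per library. The lower glycolytic genes and Aldoa stand at the top, and Hk3 shows the widest gap, with D0 well above both day 1 groups.

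All 45 genes passed the low-count filter, and 26 of them differed between ACD1 and D1 at an edgeR adjusted p under 0.05, 18 higher and 8 lower. Over all 12224 genes tested, 30.4% were called in that comparison, 16.7% higher and 13.7% lower. In D1 against D0, 36 of the 45 were called, 19 higher and 17 lower, against 66.3% of all genes tested (32.8% higher, 33.5% lower). In ACD1 against D0 it was 33, with 20 higher and 13 lower, against 60.7% (30.3% higher, 30.4% lower). The members are well expressed, with a median of 126 CPM against 30.5 CPM over all genes tested. Among the 3733 genes at or above the members' lower quartile of 62.2 CPM, 46.9% were called in ACD1 against D1 (24.5% higher), 84.7% in D1 against D0 and 80.6% in ACD1 against D0. The members called were 57.8% of the 45 in ACD1 against D1, with 40% called higher and 17.8% lower, where genes at their level had 22.3% lower. They were 80% in D1 against D0 and 73.3% in ACD1 against D0, both below the share of genes at their level. None of these gaps was tested. The shares of all genes tested are also the comparison for the counts by step and by further list below. No such count was tested against them. Most changes were small. A change of 1.5-fold or more was called for 4 members in ACD1 against D1 (10.5% of all genes), for 18 in D1 against D0 (37.8%) and for 8 in ACD1 against D0 (31.1%). The median log2 fold change of the 45 was 0.06 in ACD1 against D1, 0.03 in D1 against D0 and 0.06 in ACD1 against D0. That of all genes tested was 0.01 in D1 against D0 and rounded to 0.00 in both others. Each call was repeated under 15 alternatives, among them DESeq2, limma on log2(TPM + 0.1) or log2(TPM + 1), and leaving out each library in turn, and a call is said to be lost where the adjusted p was 0.05 or more. A range of adjusted p beside a gene runs over its alternatives. ACD1 against D1 and D1 against D0 share the D1 libraries, so opposite signs in both are not independent of each other.

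**Figure D2:**
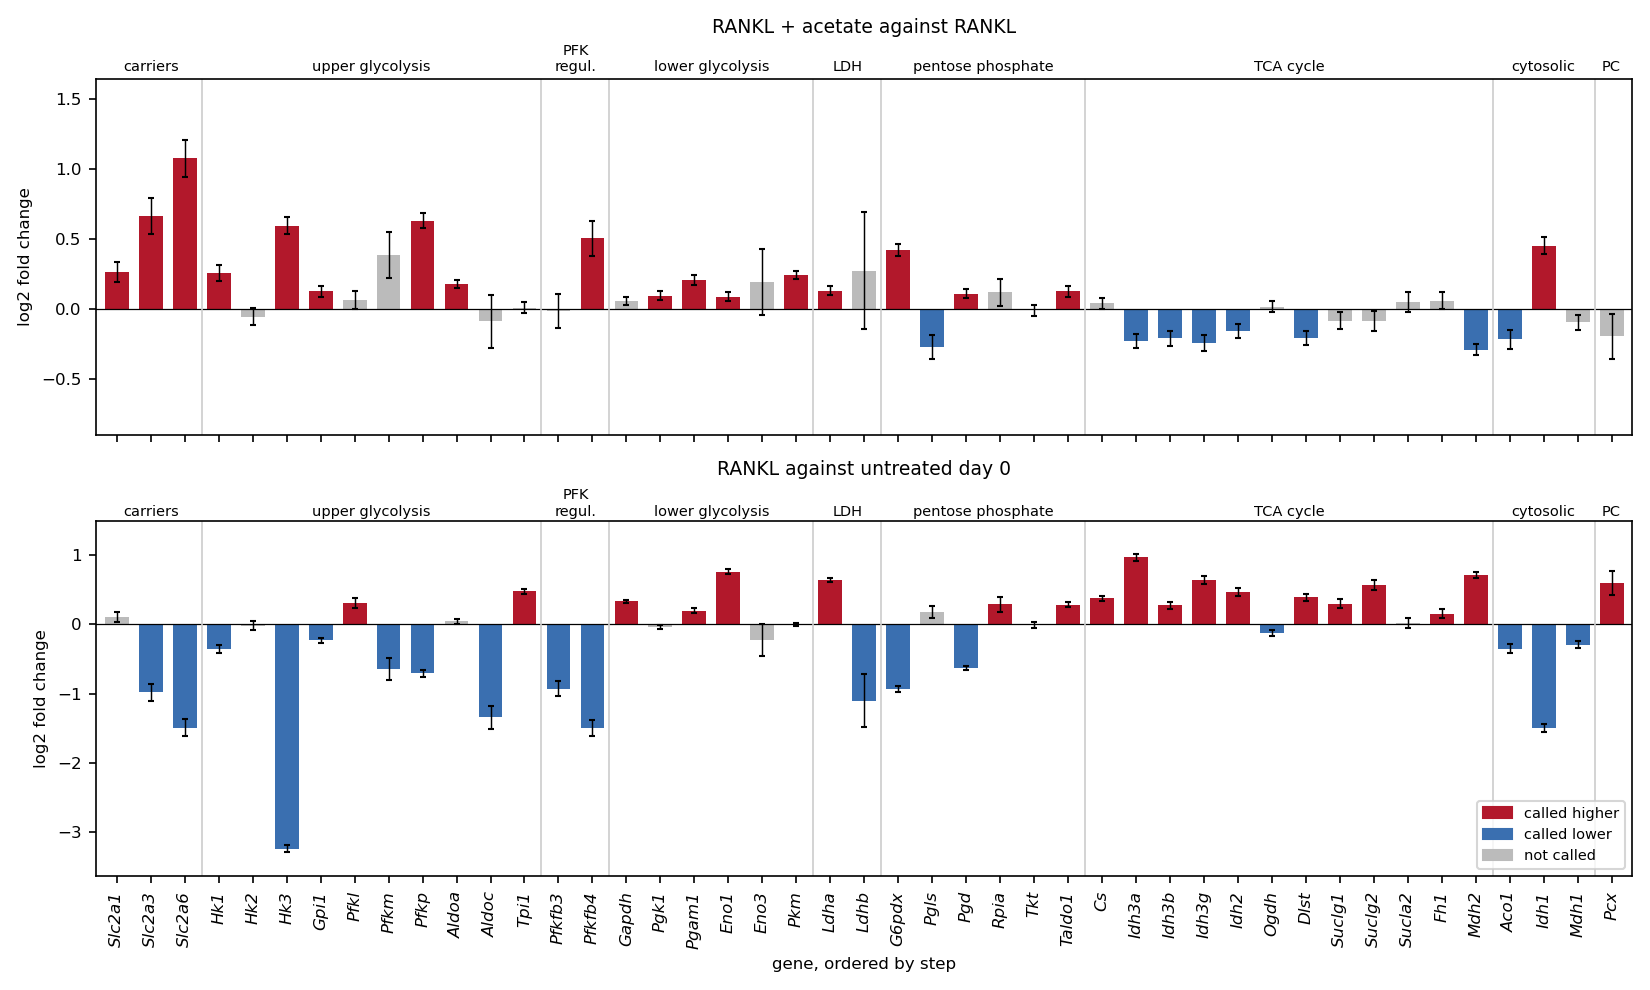
Log2 fold change (bars) with its standard error (lines) of each gene in ACD1 against D1 (top) and in D1 against D0 (bottom), ordered by step, with calls at an edgeR adjusted p under 0.05 in red (higher) and blue (lower) and genes not called in grey. With acetate no carrier, glycolytic or lactate dehydrogenase gene was called lower and no TCA cycle gene was called higher. Of all genes tested, 13.7% were called lower and 16.7% higher there. In D1 against D0 10 of 12 TCA cycle genes were called higher, against 32.8% of all genes tested.

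Glucose enters through facilitative carriers, and all 3 listed here rose with acetate, as did 16.7% of all genes tested. The summed level of the 3 was 59.7 and 61.8 TPM in ACD1, 43.98 and 40.7 TPM in D1, and 62.2 and 60.2 TPM in D0. This sum includes the lysosomal Slc2a6, so it is not a level of uptake into the cell. Slc2a6 (ENSMUSG00000036067, chr2:27021363-27027998, minus strand), the lysosomal carrier GLUT6, had 22.5 and 21.7 CPM in ACD1, 10.8 and 10.1 CPM in D1, and 30.5 and 28.4 CPM in D0. Its groups did not overlap, with D1 lowest and ACD1 between D1 and D0. It was 2.11-fold higher in ACD1 than in D1 (log2 fold change 1.08 ± 0.13, edgeR adjusted p = 5.17e-08) and 2.81-fold lower in D1 than in D0 (log2 fold change -1.49 ± 0.13, edgeR adjusted p = 2.41e-12). Slc2a3 (ENSMUSG00000003153, chr6:122727809-122801640, minus strand), the high-affinity carrier GLUT3, had 25.6 and 21.2 CPM in ACD1, 15.8 and 13.8 CPM in D1, and 28.6 and 29.9 CPM in D0. It fell in D1 against D0 (log2 fold change -0.98 ± 0.13, edgeR adjusted p = 2.05e-08). Slc2a3 was higher in ACD1 than in D1 (log2 fold change 0.66 ± 0.13, edgeR adjusted p = 1.17e-04). Slc2a1, the widespread carrier GLUT1, did not follow this pattern. Its libraries had 71.2 and 71.6 CPM in ACD1, 63.01 and 55.9 CPM in D1, and 55.8 and 54.4 CPM in D0. It was not called in D1 against D0 (log2 fold change 0.11 ± 0.08, edgeR adjusted p = 0.204). Slc2a1 rose in ACD1 against D1 (log2 fold change 0.26 ± 0.07, edgeR adjusted p = 0.00476). The Slc2a1 call was lost with DESeq2, with limma on log2(TPM + 0.1) and log2(TPM + 1), and without D1 replicate 2 (adjusted p 0.00325 to 0.134). As a share of the summed TPM of the 3 carriers, Slc2a1 took 54.1% and 53.6% in ACD1, 67.01% and 62.4% in D1, and 41.03% and 41.6% in D0. GLUT1 transcripts thus led the set in every library, and by the widest margin in D1.

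Hexokinase commits glucose to the cell by phosphorylating it, and Hk3, the hexokinase of leukocytes, had the widest change of all 45 genes in D1 against D0. Hk3 (ENSMUSG00000025877, chr13:55005985-55021385, minus strand) had 95.97 and 99.3 CPM in ACD1, 65.2 and 64.2 CPM in D1, and 639.6 and 583 CPM in D0. Both D0 libraries stood far above the 4 day 1 libraries, and both ACD1 libraries stood above both D1 libraries. The gene was 9.44-fold lower in D1 than in D0 (log2 fold change -3.24 ± 0.05, edgeR adjusted p = 3.18e-33), and 1.51-fold higher in ACD1 than in D1 (log2 fold change 0.59 ± 0.06, edgeR adjusted p = 4.32e-10). Against D0, ACD1 was still 6.26-fold lower (log2 fold change -2.65 ± 0.05, edgeR adjusted p = 8.52e-31). Hk1, the housekeeping hexokinase that sits on mitochondria, fell slightly in D1 against D0 (log2 fold change -0.35 ± 0.06, edgeR adjusted p = 1.91e-06). Hk1 rose with acetate (log2 fold change 0.25 ± 0.06, edgeR adjusted p = 7.07e-04), a call lost on both TPM scales and without ACD1 replicate 2 (adjusted p 1.22e-04 to 0.127). Hk2, the inducible form, had 86.7 and 88.98 CPM in ACD1, 88.99 and 93.99 CPM in D1, and 89.7 and 95.7 CPM in D0. It was called in no comparison, at -0.06 ± 0.06 in ACD1 against D1 and -0.02 ± 0.06 in D1 against D0 on the log2 scale. Of the summed TPM of the 3 hexokinases, Hk3 held 38.7% and 37.2% in ACD1, 31.7% and 31.2% in D1, and 80.1% and 78.1% in D0. Hk1 held 41.96% and 43.1% in ACD1, 44.5% and 44.4% in D1, and 13.7% and 15.04% in D0, so that the leading hexokinase transcript was Hk1 in all 4 day 1 libraries and Hk3 in both D0 libraries.

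The RefSeq promoter of Hk3, as the member with the widest change, is shown from 250 bases before its start site up to that site (GRCm38.p6, chr13:55021386-55021635, minus strand, 5′ to 3′), with matches to ACGTG in capitals on either strand. ACGTG is the core that hypoxia-inducible factors are known to bind.
Hk3: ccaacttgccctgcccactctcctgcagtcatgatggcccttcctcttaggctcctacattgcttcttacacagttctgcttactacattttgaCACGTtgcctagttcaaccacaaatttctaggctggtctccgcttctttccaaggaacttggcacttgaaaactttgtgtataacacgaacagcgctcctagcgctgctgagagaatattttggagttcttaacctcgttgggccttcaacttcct
It holds 1 such place, and a match is only a description of these letters.

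**Figure D3:**
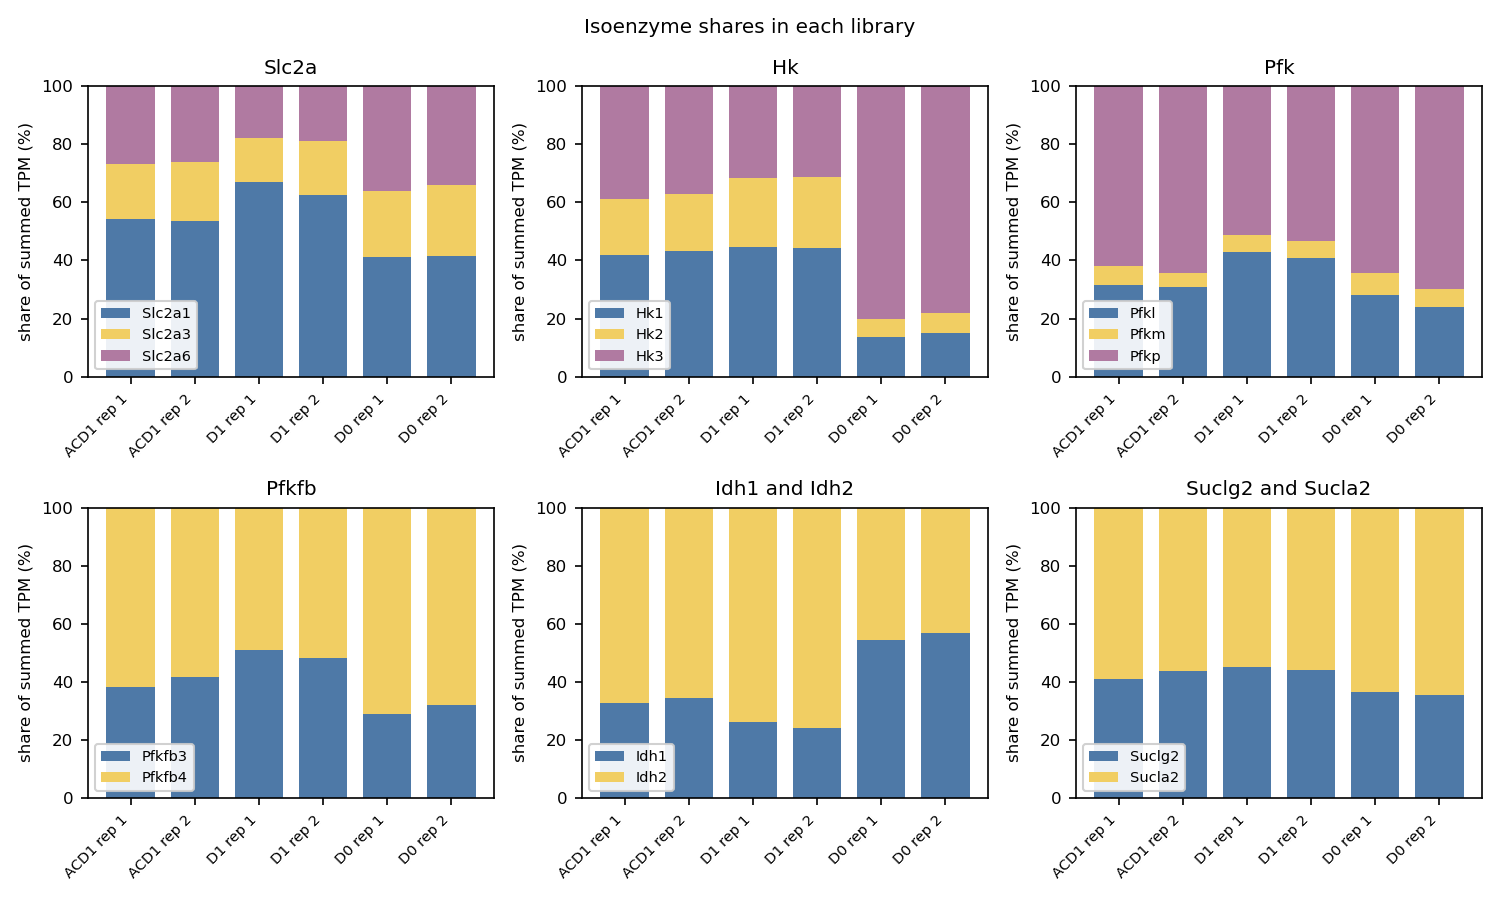
Share of the summed TPM taken by each isoenzyme (stacked colours, percent) in each of the 6 libraries, with the ACD1 libraries at the left, then D1, then D0, for glucose carriers, hexokinases, phosphofructokinases, the PFKFB enzymes Pfkfb3 and Pfkfb4, the NADP-dependent isocitrate dehydrogenases and the succinyl-CoA ligase beta subunits. Hk3 takes most of the hexokinase bar in D0 only, and Idh1 takes the larger part of its bar in D0 only.

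Of the 10 genes of upper glycolysis, hexokinases included, 5 rose and none fell in ACD1 against D1, and 2 rose and 6 fell in D1 against D0. Of all genes tested, 16.7% rose and 13.7% fell in ACD1 against D1, and 32.8% and 33.5% in D1 against D0. The 5 were Hk1, Hk3, Gpi1, Pfkp and Aldoa, and the count became 3 on both TPM scales. Of them, all but Aldoa had fallen in D1 against D0. Pfkp (ENSMUSG00000021196, chr13:6579768-6648777, minus strand), the platelet-type phosphofructokinase, had 147 and 143 CPM in ACD1, 91.99 and 95.3 CPM in D1, and 153 and 154 CPM in D0. D1 was low and ACD1 reached nearly the D0 level. The gene fell in D1 against D0 (log2 fold change -0.71 ± 0.05, edgeR adjusted p = 7.22e-14) and rose in ACD1 against D1 (log2 fold change 0.63 ± 0.05, edgeR adjusted p = 1.12e-11). Pfkp was not called in ACD1 against D0 (log2 fold change -0.08 ± 0.05, edgeR adjusted p = 0.177). Pfkl, the liver-type subunit, instead rose in D1 against D0 (log2 fold change 0.31 ± 0.07, edgeR adjusted p = 1.52e-04), a call lost on both TPM scales (adjusted p 4.97e-06 to 0.0717). Pfkl was not called with acetate (log2 fold change 0.06 ± 0.06, edgeR adjusted p = 0.545). The muscle-type Pfkm (ENSMUSG00000033065, chr15:98092589-98132451, plus strand) had 15.6 and 12.9 CPM in ACD1, 10.1 and 11.7 CPM in D1, and 19.2 and 14.8 CPM in D0, with D1 lowest. It fell in D1 against D0 (log2 fold change -0.64 ± 0.16, edgeR adjusted p = 6.67e-04), a call lost without D0 replicate 1 (adjusted p 1.25e-04 to 0.0563). Pfkp held 62.02% and 64.3% in ACD1, 51.3% and 53.4% in D1, and 64.3% and 69.9% in D0 of phosphofructokinase TPM. Pfkm and Pfkp overlap exons of Senp1 and Pitrm1 on the other strand, whose counts came to 430.2% and 90.5% of theirs, and without stated strand use such reads cannot be told apart.

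Gpi1, which turns glucose 6-phosphate into fructose 6-phosphate, fell in D1 against D0 (log2 fold change -0.23 ± 0.04, edgeR adjusted p = 1.37e-06). Gpi1 rose with acetate (log2 fold change 0.12 ± 0.04, edgeR adjusted p = 0.009996), a call lost on both TPM scales and without ACD1 replicate 1 or D1 replicate 1 (adjusted p 0.00438 to 0.182). Aldoa, which makes up at least 98.9% of aldolase TPM in every library, had 1392 and 1345 CPM in ACD1, 1205 and 1219 CPM in D1, and 1191 and 1165 CPM in D0. It was not called in D1 against D0 (log2 fold change 0.04 ± 0.03, edgeR adjusted p = 0.246). Aldoa rose with acetate (log2 fold change 0.17 ± 0.03, edgeR adjusted p = 3.05e-05). Aldoc (ENSMUSG00000017390, chr11:78322968-78327781, plus strand), the brain-type aldolase, had 6.49 and 7.91 CPM in ACD1, 7.03 and 8.34 CPM in D1, and 18.7 and 20.3 CPM in D0, about as low in ACD1 as in D1. It fell in D1 against D0 (log2 fold change -1.34 ± 0.16, edgeR adjusted p = 6.22e-09) and in ACD1 against D0 (log2 fold change -1.44 ± 0.17, edgeR adjusted p = 3.65e-09). Tpi1, triosephosphate isomerase, rose in D1 against D0 (log2 fold change 0.48 ± 0.04, edgeR adjusted p = 2.53e-13). Tpi1 was at 0.01 ± 0.04 in ACD1 against D1, not called.

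PFKFB enzymes set the level of fructose 2,6-bisphosphate, the strongest activator of phosphofructokinase, and both listed ones fell in D1 against D0. Pfkfb2, outside the 45 genes, had 13.7 and 12.1 CPM in ACD1, 14.1 and 14.5 CPM in D1, and 12.2 and 12.8 CPM in D0. Neither Pfkfb2 nor the weaker Pfkfb1 was called in D1 against D0. Pfkfb4 (ENSMUSG00000025648, chr9:108991778-109032228, plus strand) had 18.8 and 19.4 CPM in ACD1, 12.9 and 14.1 CPM in D1, and 38.7 and 37.6 CPM in D0. It was 2.82-fold lower in D1 than in D0 (log2 fold change -1.50 ± 0.12, edgeR adjusted p = 1.62e-13). Pfkfb4 rose with acetate (log2 fold change 0.50 ± 0.13, edgeR adjusted p = 0.002402), a call lost on both TPM scales (adjusted p 0.00178 to 0.107). Pfkfb3 (ENSMUSG00000026773, chr2:11471433-11554077, minus strand), the form with the highest kinase to phosphatase ratio, had 19.6 and 19.8 CPM in ACD1, 18.5 and 21.4 CPM in D1, and 39.5 and 36.4 CPM in D0. It fell in D1 against D0 (log2 fold change -0.93 ± 0.11, edgeR adjusted p = 4.14e-09), and its ACD1 libraries lay within the range of its D1 libraries. Pfkfb4 took 61.6% and 58.2% in ACD1, 48.9% and 51.7% in D1, and 70.9% and 67.9% in D0 of the summed TPM of Pfkfb3 and Pfkfb4.

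Lower glycolysis, from glyceraldehyde 3-phosphate to pyruvate, held 6 members, of which 4 rose and none fell in ACD1 against D1, and 3 rose and none fell in D1 against D0. The shares of all genes tested that rose were 16.7% and 32.8%, and 13.7% and 33.5% fell. The count of 4 became 3 with DESeq2, 5 with near-identical copies added, and 2 on both TPM scales and without ACD1 replicate 1, ACD1 replicate 2 or D1 replicate 1. The 3 not called in D1 against D0 were Pgk1, Eno3 and Pkm, each at a log2 fold change below 0. Eno1 (ENSMUSG00000063524, chr4:150236721-150248879, plus strand), the main enolase, had 2166 and 2145 CPM in ACD1, 1983 and 2079.7 CPM in D1, and 1227 and 1166 CPM in D0. All 4 day 1 libraries stood well above D0, and ACD1 stood slightly above D1. It was 1.70-fold higher in D1 than in D0 (log2 fold change 0.76 ± 0.03, edgeR adjusted p = 2.75e-21), and in ACD1 against D1 the change was small (log2 fold change 0.09 ± 0.03, edgeR adjusted p = 0.0305). Gapdh rose in D1 against D0 (log2 fold change 0.33 ± 0.03, edgeR adjusted p = 4.76e-13). Gapdh was not called in ACD1 against D1 (log2 fold change 0.05 ± 0.03, edgeR adjusted p = 0.124), where it was called once the counts of its near-identical copies were added (adjusted p 0.0338 to 0.602). Pgam1, phosphoglycerate mutase, rose in D1 against D0 (log2 fold change 0.20 ± 0.04, edgeR adjusted p = 1.41e-05) and again in ACD1 against D1 (log2 fold change 0.20 ± 0.04, edgeR adjusted p = 3.31e-05). Pgk1, phosphoglycerate kinase, had 1093 and 1099 CPM in ACD1, 1015 and 1041 CPM in D1, and 1058 and 1048 CPM in D0. It was not called in D1 against D0 (log2 fold change -0.03 ± 0.03, edgeR adjusted p = 0.343). Pgk1 was called higher in ACD1 than in D1 (log2 fold change 0.09 ± 0.03, edgeR adjusted p = 0.0241). The muscle enolase Eno3, at 4.66 to 6.44 CPM, was called in no comparison. The acetate calls of Eno1 and Pgk1 were both lost on both TPM scales and without ACD1 replicate 1, ACD1 replicate 2 or D1 replicate 1, at adjusted p up to 0.344 and 0.161. That of Eno1 was also lost with DESeq2. Near-identical copies elsewhere in the genome held 3.84% of the summed counts for Pgam1, 2.65% for Gapdh with 72 copies, 2.12% for Pgk1 and 0.997% for Eno1, so reads of these genes may be split.

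Pyruvate kinase makes pyruvate and ATP in the last step of glycolysis. Pkm (ENSMUSG00000032294, chr9:59656368-59679375, plus strand) had 3553 and 3638 CPM in ACD1, 3032 and 3055 CPM in D1, and 3074 and 3024 CPM in D0. D1 and D0 lay at about the same level, at -0.003 ± 0.03 on the log2 scale, and both ACD1 libraries stood above the other 4. Pkm rose in ACD1 against D1 (log2 fold change 0.24 ± 0.03, edgeR adjusted p = 1.73e-09) and in ACD1 against D0 (log2 fold change 0.24 ± 0.03, edgeR adjusted p = 5.14e-10). The gene has a pair of mutually exclusive exons, which give the M1 form of muscle and the M2 form of proliferating cells and leukocytes. The exons are shown because they are what tells both transcripts apart (GRCm38, plus strand, 5′ to 3′), M1 at chr9:59675029-59675195 and M2 at chr9:59675568-59675734, with the bases that differ between them in capitals.
M1: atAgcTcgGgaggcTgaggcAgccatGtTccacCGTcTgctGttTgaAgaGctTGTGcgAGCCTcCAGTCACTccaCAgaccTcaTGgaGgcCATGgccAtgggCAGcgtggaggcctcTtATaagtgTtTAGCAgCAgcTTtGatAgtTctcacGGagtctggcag
M2: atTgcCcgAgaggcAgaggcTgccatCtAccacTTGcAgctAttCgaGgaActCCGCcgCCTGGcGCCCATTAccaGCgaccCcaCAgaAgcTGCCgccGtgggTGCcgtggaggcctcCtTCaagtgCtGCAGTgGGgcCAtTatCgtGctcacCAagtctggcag
Both are 167 bases long and differ at 64 of them, an identity of 61.7%. The M2 transcript carried 93.2% and 93.3% of Pkm TPM in ACD1, 92.8% and 93.5% in D1, and 93.1% and 92.5% in D0. The M1 transcript carried the rest, so M2 stayed between 92.5% and 93.5% in the 6 libraries while the gene's level was higher with acetate. These shares are RSEM's split of reads between transcripts of 2432 bases each, and no error of that split is given in the files.

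Lactate dehydrogenase turns pyruvate into lactate and restores the NAD that glycolysis uses. Ldha (ENSMUSG00000063229, chr7:46841475-46855627, plus strand), the form that favours lactate, had 1135 and 1132 CPM in ACD1, 1033 and 1043 CPM in D1, and 668 and 663 CPM in D0. Replicates lay close together, and the groups did not overlap. Ldha was 1.56-fold higher in D1 than in D0 (log2 fold change 0.64 ± 0.03, edgeR adjusted p = 1.57e-18). Ldha rose a little further with acetate (log2 fold change 0.13 ± 0.03, edgeR adjusted p = 0.00224), a call lost on both TPM scales (adjusted p 8.62e-04 to 0.0669). Ldhb (ENSMUSG00000030246, chr6:142490249-142507957, minus strand), the heart form, had 1.94 and 1.66 CPM in ACD1, 1.8 and 1.17 CPM in D1, and 3.17 and 3.24 CPM in D0. It was called lower in D1 than in D0 (log2 fold change -1.10 ± 0.38, edgeR adjusted p = 0.0117) on few reads. The call was lost with DESeq2 and without D1 replicate 2, D0 replicate 1 or D0 replicate 2 (adjusted p 0.00746 to 0.127). RefSeq gives 2 Ldha promoters. The upstream one is shown because it has the most ACGTG places among the members with large changes, again 250 bases up to the start site (GRCm38.p6, chr7:46845554-46845803, plus strand, 5′ to 3′), with ACGTG on either strand in capitals.
Ldha: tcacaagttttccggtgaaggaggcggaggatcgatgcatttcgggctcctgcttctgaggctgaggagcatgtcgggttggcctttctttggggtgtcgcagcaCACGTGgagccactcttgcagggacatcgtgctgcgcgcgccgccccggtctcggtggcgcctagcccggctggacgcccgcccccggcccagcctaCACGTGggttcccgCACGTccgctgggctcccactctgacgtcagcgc
It holds 3 places, of which 2 read CACGTG, the E-box that MYC and MLX proteins are known to bind and that itself contains ACGTG. The other Ldha promoter, at the start site further downstream (chr7:46846832-46847081), holds neither ACGTG nor CACGTG. A RefSeq promoter was found for 43 of the 45 genes, 63 promoters in all. ACGTG occurred on either strand in 22 of the 63 (34.9%) and in 16.6% of the 32851 mouse promoters of the same length, and CACGTG in 7 (11.1%) and in 6.02%. Several promoters belong to the same gene and overlap, so these shares are descriptions and say nothing of binding.

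Lactate leaves through monocarboxylate carriers, and 4 of 6 export genes rose and 1 fell in D1 against D0, while 1 rose and 1 fell in ACD1 against D1. The shares of all genes tested that rose were 32.8% and 16.7%, and 33.5% and 13.7% fell. Slc16a1, the carrier MCT1, had 90.6 and 92.9 CPM in ACD1, 94.04 and 92.02 CPM in D1, and 26.5 and 29.4 CPM in D0 and rose in D1 against D0 (log2 fold change 1.74 ± 0.08, edgeR adjusted p = 3.36e-20). Slc16a3, the lactate exporter MCT4, had 79.9 and 76.5 CPM in ACD1, 51.9 and 50.3 CPM in D1, and 37.1 and 33.7 CPM in D0. It rose in D1 against D0 (log2 fold change 0.53 ± 0.08, edgeR adjusted p = 1.02e-06) and again in ACD1 against D1 (log2 fold change 0.61 ± 0.07, edgeR adjusted p = 2.47e-08). The gene that fell with acetate was Car2, a carbonic anhydrase of osteoclasts that is also on the osteoclast precursor list (log2 fold change -2.65 ± 0.15, edgeR adjusted p = 1.93e-16). Its call was lost on the log2(TPM + 0.1) scale (adjusted p 5.52e-69 to 0.0583). The gene that fell in D1 against D0 was Slc16a7, the carrier MCT2 (log2 fold change -1.16 ± 0.18, edgeR adjusted p = 7.15e-07).

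In the pentose phosphate pathway both NADPH-making enzymes fell in D1 against D0 and rose with acetate, and no enzyme of the sugar-exchanging part was called lower in either comparison. G6pdx (ENSMUSG00000031400, chrX:74409483-74429194, minus strand), the NADPH-making first enzyme, had 333 and 309 CPM in ACD1, 243 and 238 CPM in D1, and 464 and 454 CPM in D0. D1 was lowest and ACD1 lay between D1 and D0. It was 1.91-fold lower in D1 than in D0 (log2 fold change -0.93 ± 0.04, edgeR adjusted p = 5.92e-20). G6pdx rose in ACD1 against D1 (log2 fold change 0.42 ± 0.04, edgeR adjusted p = 9.01e-10) and stayed below D0 (log2 fold change -0.52 ± 0.04, edgeR adjusted p = 6.33e-13). Pgd (ENSMUSG00000028961, chr4:149149991-149166771, minus strand), which makes a further NADPH, had 792 and 791 CPM in ACD1, 732 and 738 CPM in D1, and 1144 and 1130.3 CPM in D0. It was 1.55-fold lower in D1 than in D0 (log2 fold change -0.63 ± 0.03, edgeR adjusted p = 2.91e-18). Pgd rose slightly with acetate (log2 fold change 0.11 ± 0.03, edgeR adjusted p = 0.0115). Pgls, the lactonase between them, was not called in D1 against D0 (log2 fold change 0.18 ± 0.09, edgeR adjusted p = 0.0661). Pgls fell in ACD1 against D1 (log2 fold change -0.28 ± 0.09, edgeR adjusted p = 0.0129). Among the enzymes that rearrange pentoses, Taldo1, transaldolase, rose in D1 against D0 (log2 fold change 0.28 ± 0.04, edgeR adjusted p = 8.84e-08) and with acetate (log2 fold change 0.12 ± 0.04, edgeR adjusted p = 0.0121). Rpia, ribose-5-phosphate isomerase, rose in D1 against D0 (log2 fold change 0.29 ± 0.10, edgeR adjusted p = 0.015). Transketolase, Tkt, had 661 and 645 CPM in ACD1, 648 and 669 CPM in D1, and 681 and 645 CPM in D0 and was called in no comparison.

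With acetate, only G6pdx among these kept its call under every alternative. The Pgd and Taldo1 calls were lost on both TPM scales and without ACD1 replicate 1, ACD1 replicate 2 or D1 replicate 1 at adjusted p up to 0.0855 and 0.343. The Pgls call was lost with DESeq2, on both TPM scales and without ACD1 replicate 2 or D1 replicate 2 (adjusted p 0.002003 to 0.347). In D1 against D0 the Rpia call was lost with DESeq2 and without D1 replicate 1 or D0 replicate 2 (adjusted p 0.0121 to 0.0766). Of 6 further pathway genes, 3 rose and none fell with acetate, and 1 rose and 2 fell in D1 against D0. Beside them, all genes tested had 16.7% higher and 13.7% lower with acetate, and 32.8% and 33.5% in D1 against D0. The count of 3 became 1 on both TPM scales and without D1 replicate 2, and 2 with DESeq2 and without ACD1 replicate 1, ACD1 replicate 2 or D1 replicate 1. The H6pd and Rpe calls were the ones lost, and that of Prps2 held. The count of 2 in D1 against D0 became 1 on both TPM scales. Prps2, which activates ribose for nucleotide synthesis, fell in D1 against D0 (log2 fold change -0.46 ± 0.08, edgeR adjusted p = 9.19e-06). Prps2 rose with acetate (log2 fold change 0.41 ± 0.08, edgeR adjusted p = 1.75e-04), while its relative Prps1 rose in D1 against D0 (log2 fold change 0.71 ± 0.08, edgeR adjusted p = 5.13e-09). G6pdx overlaps exons of Ikbkg on the other strand, whose counts came to 20.3% of its own.

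Most TCA cycle genes were higher in D1 than in D0, and a part of them fell with acetate. Of 12 mitochondrial enzymes, 10 rose and 1 fell in D1 against D0 (median log2 fold change 0.38), and 6 fell and none rose in ACD1 against D1 (median -0.12). Of all genes tested, 32.8% rose and 33.5% fell in D1 against D0 (median 0.01). In ACD1 against D1, 16.7% rose and 13.7% fell (median rounded to 0.00). Among genes at the members' level, 84.7% were called in D1 against D0 and 46.9% in ACD1 against D1. Against D0, ACD1 still had 9 higher and 1 lower (median 0.26). Idh3a (ENSMUSG00000032279, chr9:54586334-54604661, plus strand), the catalytic subunit of the NAD-dependent isocitrate dehydrogenase, had 144 and 134 CPM in ACD1, 163 and 164 CPM in D1, and 83.3 and 83.8 CPM in D0. D0 was lowest, D1 highest, and ACD1 lay between them. It was 1.95-fold higher in D1 than in D0 (log2 fold change 0.97 ± 0.06, edgeR adjusted p = 4.84e-17). Idh3a fell in ACD1 against D1 (log2 fold change -0.23 ± 0.05, edgeR adjusted p = 6.56e-04). Its partner Idh3g (ENSMUSG00000002010, chrX:73778963-73786897, minus strand) had 95.4 and 93.8 CPM in ACD1, 113 and 111 CPM in D1, and 71.8 and 71.7 CPM in D0, the same order. It rose in D1 against D0 (log2 fold change 0.64 ± 0.06, edgeR adjusted p = 2.00e-11) and fell in ACD1 against D1 (log2 fold change -0.25 ± 0.06, edgeR adjusted p = 0.00112). The third subunit gene, Idh3b, rose in D1 against D0 (log2 fold change 0.27 ± 0.06, edgeR adjusted p = 5.46e-05). Idh3b fell with acetate (log2 fold change -0.21 ± 0.05, edgeR adjusted p = 0.0027), but it overlaps exons of Nop56 on the other strand, whose counts came to 234% of its own. Mdh2 (ENSMUSG00000019179, chr5:135778480-135790398, plus strand), the malate dehydrogenase that closes the cycle, had 346 and 348 CPM in ACD1, 421 and 429.9 CPM in D1, and 263 and 256 CPM in D0. Its groups were well apart, and it was 1.64-fold higher in D1 than in D0 (log2 fold change 0.71 ± 0.04, edgeR adjusted p = 2.87e-17). Mdh2 fell in ACD1 against D1 (log2 fold change -0.29 ± 0.04, edgeR adjusted p = 2.13e-07).

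The entry enzyme was not among those that fell with acetate. Cs, citrate synthase, which joins acetyl-CoA to oxaloacetate, had 411 and 401 CPM in ACD1, 398 and 394 CPM in D1, and 313 and 297 CPM in D0. It rose in D1 against D0 (log2 fold change 0.37 ± 0.04, edgeR adjusted p = 4.80e-10) and was at 0.04 ± 0.04 in ACD1 against D1, not called. Idh2, the NADP-dependent mitochondrial form, rose in D1 against D0 (log2 fold change 0.47 ± 0.05, edgeR adjusted p = 1.37e-09). Idh2 fell with acetate (log2 fold change -0.16 ± 0.05, edgeR adjusted p = 0.0165). Dlst, the core of the oxoglutarate dehydrogenase complex, rose in D1 against D0 (log2 fold change 0.39 ± 0.05, edgeR adjusted p = 1.54e-08). Dlst fell with acetate (log2 fold change -0.21 ± 0.05, edgeR adjusted p = 8.78e-04), whereas Ogdh, its first subunit, was the one cycle gene that fell in D1 against D0 (log2 fold change -0.12 ± 0.04, edgeR adjusted p = 0.0126). Suclg1 and Suclg2, subunits of succinyl-CoA ligase, rose in D1 against D0 by 0.30 ± 0.06 and 0.57 ± 0.08 on the log2 scale and were not called with acetate. Sucla2, the ATP-forming partner, was called in no comparison. Fh1, fumarase, rose in D1 against D0 (log2 fold change 0.16 ± 0.06, edgeR adjusted p = 0.0243). Fh1 was not called with acetate. Of the 6 acetate calls, those of Idh3a, Idh3g and Mdh2 held under all 15 alternatives. The Idh2 call was lost with DESeq2 and without ACD1 replicate 1, ACD1 replicate 2 or D1 replicate 2 (adjusted p 0.0134 to 0.125). The Dlst call was lost on both TPM scales and without ACD1 replicate 1 or D1 replicate 2 (adjusted p 7.69e-05 to 0.0566), and that of Idh3b on both TPM scales and without D1 replicate 1 (adjusted p 0.00112 to 0.0741). In D1 against D0, the Ogdh call was lost on both TPM scales and without D1 replicate 1 or D0 replicate 1 (adjusted p 0.0127 to 0.208). The Fh1 call was lost with DESeq2, on both TPM scales and without D1 replicate 2 or D0 replicate 1 (adjusted p 0.0151 to 0.123).

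The 3 cytosolic relatives of cycle enzymes all fell in D1 against D0, where 10 of 12 mitochondrial enzymes rose. Of all genes tested, 33.5% fell and 32.8% rose there. Idh1 (ENSMUSG00000025950, chr1:65158616-65186500, minus strand), the NADPH-making cytosolic isocitrate dehydrogenase, had 93.4 and 93.96 CPM in ACD1, 70.8 and 66.2 CPM in D1, and 186 and 203 CPM in D0. D0 was highest, D1 lowest, and the groups did not overlap. It was 2.83-fold lower in D1 than in D0 (log2 fold change -1.50 ± 0.06, edgeR adjusted p = 7.31e-22). Idh1 rose in ACD1 against D1 (log2 fold change 0.45 ± 0.06, edgeR adjusted p = 5.20e-07). Of the summed TPM of Idh1 and its mitochondrial counterpart Idh2, Idh1 took 32.7% and 34.3% in ACD1, 26.1% and 24.1% in D1, and 54.5% and 56.9% in D0. The larger share thus belonged to Idh1 in D0 and to Idh2 in all 4 day 1 libraries. Mdh1, the cytosolic malate dehydrogenase, fell in D1 against D0 (log2 fold change -0.29 ± 0.05, edgeR adjusted p = 1.18e-05), where Mdh2 rose, and was not called with acetate (log2 fold change -0.10 ± 0.05, edgeR adjusted p = 0.191). Aco1, the cytosolic aconitase that also binds RNA as an iron sensor, had 66.7 and 65.5 CPM in ACD1, 74.8 and 79.1 CPM in D1, and 94.7 and 102 CPM in D0. It fell in D1 against D0 (log2 fold change -0.35 ± 0.06, edgeR adjusted p = 1.09e-05). Aco1 fell again in ACD1 against D1 (log2 fold change -0.22 ± 0.07, edgeR adjusted p = 0.0122). This last call was lost with DESeq2, on both TPM scales and without ACD1 replicate 1, ACD1 replicate 2 or D1 replicate 2 (adjusted p 0.0107 to 0.125).

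**Figure D4:**
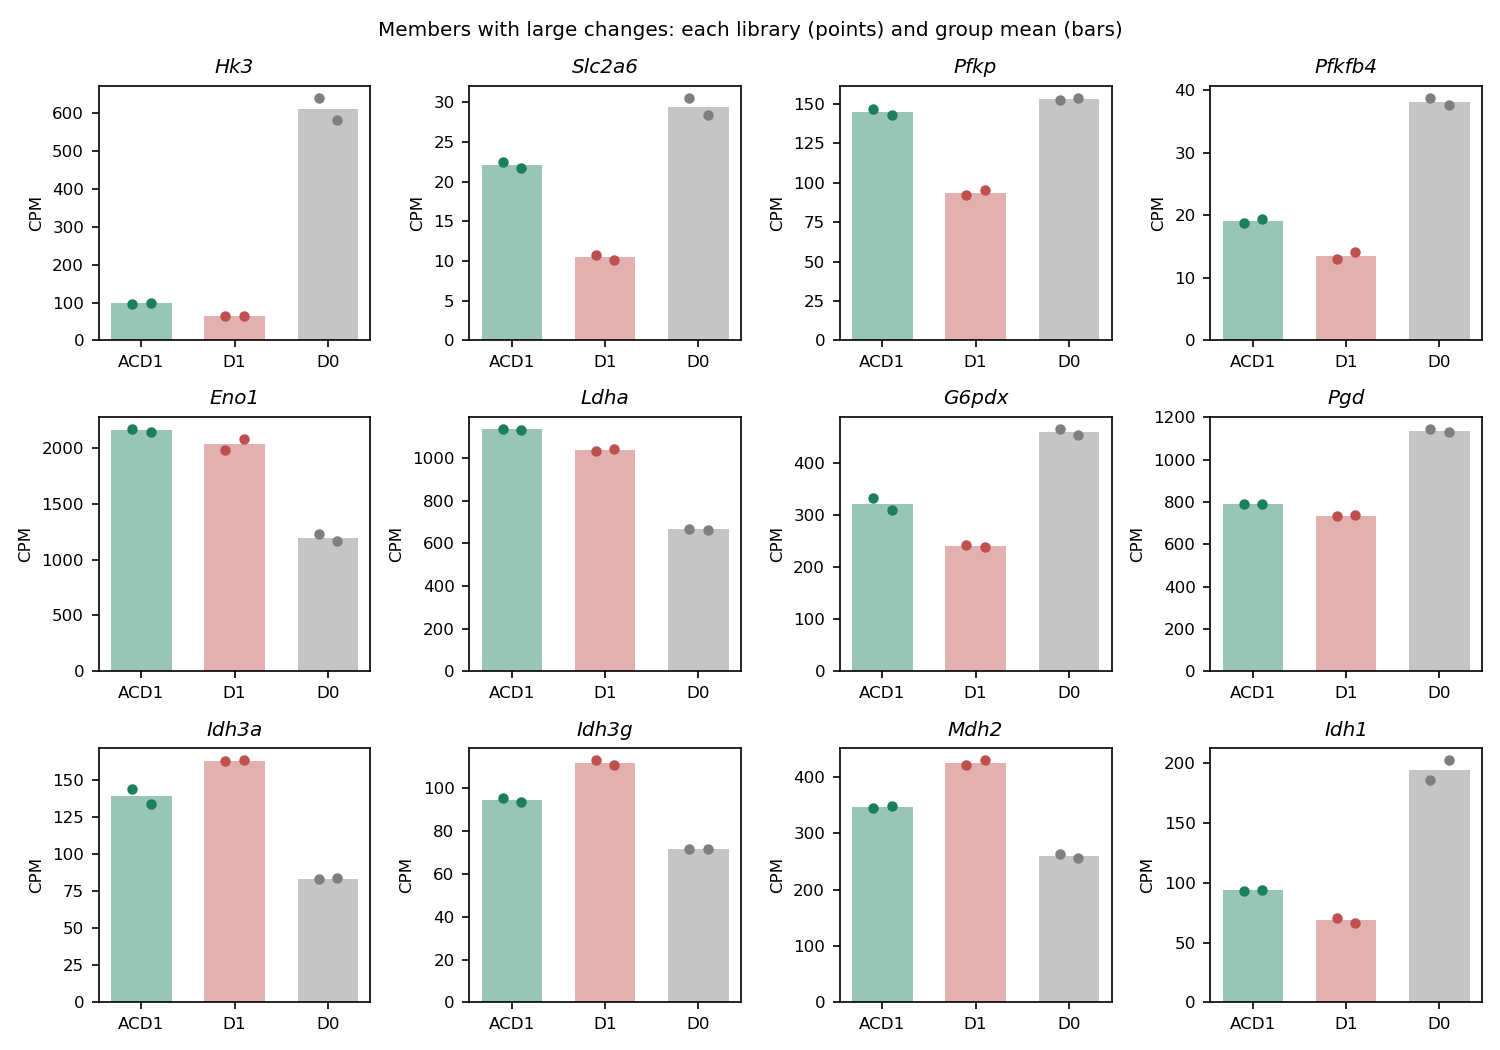
CPM of 12 members in each library (points) with the group mean (bars, starting at 0), ACD1 at the left, then D1, then D0 in each panel. Hk3, Slc2a6, Pfkp, Pfkfb4, G6pdx, Pgd and Idh1 are lowest in D1, Idh3a, Idh3g and Mdh2 are highest in D1, and Eno1 and Ldha are highest in ACD1.

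Pyruvate reaches the cycle through pyruvate carboxylase or the pyruvate dehydrogenase complex. Pcx (ENSMUSG00000024892, chr19:4510472-4621752, plus strand), pyruvate carboxylase, had 12.99 and 11.1 CPM in ACD1, 15.7 and 11.9 CPM in D1, and 9.01 and 9.32 CPM in D0. It rose in D1 against D0 (log2 fold change 0.59 ± 0.17, edgeR adjusted p = 0.00268), a call lost on both TPM scales and without D1 replicate 1 (adjusted p 0.0010 to 0.105). Of 12 tested genes of the pyruvate carrier, the dehydrogenase complex and its kinases and phosphatases, 1 rose and 4 fell in ACD1 against D1, and 5 rose and 5 fell in D1 against D0. For this list and the further cycle genes below, the comparison is with all genes tested. Those had 16.7% higher and 13.7% lower in ACD1 against D1, and 32.8% and 33.5% in D1 against D0. The 4 became 3 with DESeq2, with the replicate block and without ACD1 replicate 1, and 2 on both TPM scales and without ACD1 replicate 2 or D1 replicate 1. The calls of Dld and Pdha1 were the ones lost. The 1 that rose was the kinase gene Pdk3 (log2 fold change 0.37 ± 0.14, edgeR adjusted p = 0.0439), a call lost under 7 of 15 alternatives, among them leaving out ACD1 replicate 1, ACD1 replicate 2, D1 replicate 2 or D0 replicate 1 (adjusted p 0.0227 to 0.372). Pdhb, the beta subunit of the complex, had 103 and 103 CPM in ACD1, 136 and 132 CPM in D1, and 75.6 and 83.6 CPM in D0. Like Idh3a and Mdh2, it was highest in D1. Pdhb rose in D1 against D0 (log2 fold change 0.75 ± 0.06, edgeR adjusted p = 3.23e-13) and fell with acetate (log2 fold change -0.38 ± 0.06, edgeR adjusted p = 2.53e-06). The core enzyme Dlat rose in D1 against D0 (log2 fold change 0.52 ± 0.06, edgeR adjusted p = 3.83e-09). So did the alpha subunit Pdha1 (log2 fold change 0.37 ± 0.05, edgeR adjusted p = 6.03e-08) and the shared subunit Dld (log2 fold change 0.46 ± 0.05, edgeR adjusted p = 2.40e-09). Pdhx, which anchors Dld to the core, fell with acetate (log2 fold change -0.44 ± 0.09, edgeR adjusted p = 4.40e-04). Of 8 tested further genes of the cycle and its carriers, none rose and 4 fell in ACD1 against D1, and 5 rose and 1 fell in D1 against D0. Among those that fell with acetate were the succinate dehydrogenase subunits Sdhb, Sdha and Sdhd. Of these subunits Sdhb fell furthest (log2 fold change -0.33 ± 0.06, edgeR adjusted p = 4.74e-05), and the others lay at -0.18 ± 0.04 for Sdha and -0.16 ± 0.05 for Sdhd on the log2 scale. The Sdha call was lost on both TPM scales, where the value turned to 0.03 (adjusted p 1.43e-04 to 0.8597). The Sdhd call was lost with DESeq2 and without ACD1 replicate 1 or D1 replicate 2 (adjusted p 0.0111 to 0.2197). The gene that fell in D1 against D0 was Slc25a1, the carrier that exports citrate to the cytosol (log2 fold change -0.98 ± 0.08, edgeR adjusted p = 9.82e-13).

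Other routes that touch the pathway were mixed. Their counts stand beside 16.7% higher and 13.7% lower of all genes tested with acetate, and 32.8% and 33.5% in D1 against D0. Of 12 tested genes of glycogen, glycerol and gluconeogenic side steps, 2 rose and none fell with acetate, and 4 rose and 7 fell in D1 against D0, where 2 rose on both TPM scales. The 2 were Ugp2, which makes UDP-glucose (log2 fold change 0.35 ± 0.08, edgeR adjusted p = 4.89e-04), and the glycogen phosphorylase Pygl (log2 fold change 0.48 ± 0.13, edgeR adjusted p = 0.00464). Both calls were lost on both TPM scales, that of Ugp2 also without ACD1 replicate 1 (adjusted p 2.02e-05 to 0.0887) and that of Pygl without D1 replicate 1 (adjusted p 0.00342 to 0.205). Both had fallen in D1 against D0, at -0.99 ± 0.07 and -1.45 ± 0.12 on the log2 scale. Of 9 genes of the malate-aspartate shuttle, malic enzymes and glutamine entry, 3 rose and 2 fell with acetate, and 5 rose and 3 fell in D1 against D0. With acetate the counts became 1 and 1 on both TPM scales, and 2 rose with DESeq2 and without ACD1 replicate 2 or D1 replicate 2. Slc1a5, the glutamine carrier ASCT2, had 227 and 220.3 CPM in ACD1, 295 and 330.3 CPM in D1, and 83.3 and 71.8 CPM in D0. It rose in D1 against D0 (log2 fold change 2.01 ± 0.06, edgeR adjusted p = 2.45e-25) and fell with acetate (log2 fold change -0.48 ± 0.05, edgeR adjusted p = 2.67e-09). Me1, the cytosolic malic enzyme, fell in D1 against D0 (log2 fold change -1.15 ± 0.13, edgeR adjusted p = 1.13e-09). Of 20 further isoenzymes and carriers, only 6 passed the low-count filter, of which 2 rose and none fell with acetate, and 3 fell and none rose in D1 against D0. Under the alternatives 0 to 2 rose with acetate, 1 of them without ACD1 replicate 1 or D1 replicate 1, and 1 fell without D1 replicate 2.

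Transcription factors known to act on glycolytic genes were examined at the level of their own mRNA. Of 9 tested, 3 rose and 1 fell in ACD1 against D1, and 2 rose and 3 fell in D1 against D0. Beside them, all genes tested had 16.7% higher and 13.7% lower in ACD1 against D1, and 32.8% and 33.5% in D1 against D0. The 3 became 2 with DESeq2, on the log2(TPM + 0.1) scale and without ACD1 replicate 2 or D1 replicate 2, and 1 on the log2(TPM + 1) scale. Hif1a, the hypoxia-inducible factor best known for glycolytic targets, had 212 and 208 CPM in ACD1, 138 and 127 CPM in D1, and 144 and 157 CPM in D0. It rose with acetate (log2 fold change 0.66 ± 0.05, edgeR adjusted p = 1.46e-12). Both ACD1 libraries stood above the 4 others. Hif1a was also called lower in D1 than in D0. This call was lost on the log2(TPM + 0.1) and log2(TPM + 1) scales (limma adjusted p = 0.0907 and 0.0905), and without D1 replicate 2 or D0 replicate 2. Epas1, its relative HIF-2 alpha, had 5.62 and 6.15 CPM in ACD1, 3.17 and 2.69 CPM in D1, and 47.2 and 49.7 CPM in D0, with D0 far above the rest. It fell in D1 against D0 (log2 fold change -4.04 ± 0.16, edgeR adjusted p = 6.49e-22) and rose in ACD1 against D1 (log2 fold change 1.001 ± 0.22, edgeR adjusted p = 5.50e-04). The acetate call of Epas1 was lost on the log2(TPM + 1) scale (adjusted p 2.26e-04 to 0.052). Myc had 192 and 201 CPM in ACD1, 201 and 201 CPM in D1, and 54.9 and 59.1 CPM in D0. It rose in D1 against D0 (log2 fold change 1.82 ± 0.06, edgeR adjusted p = 1.24e-24), with ACD1 and D1 overlapping. Mlxip, a glucose-sensing partner of Mlx, was highest in D1. Mlxip rose in D1 against D0 (log2 fold change 0.65 ± 0.07, edgeR adjusted p = 2.40e-10) and fell with acetate (log2 fold change -0.51 ± 0.07, edgeR adjusted p = 1.27e-07). No protein level or activity was measured, and nothing here ties these factors to the members.

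Over the 23 genes of glucose carriers, glycolysis with its regulators and lactate dehydrogenase, 14 rose and none fell in ACD1 against D1, 6 rose and 11 fell in D1 against D0, and 9 rose and 7 fell in ACD1 against D0. Shares over all genes tested were 16.7% higher and 13.7% lower in ACD1 against D1. They were 32.8% and 33.5% in D1 against D0, and 30.3% and 30.4% in ACD1 against D0. Among genes at the members' level, 46.9%, 84.7% and 80.6% were called in these comparisons, in the same order. The counts were not tested against these shares. The count of 14 became 12 with DESeq2, 7 on either TPM scale, and 11 to 14 when single libraries were left out. Over the 12 TCA cycle genes, the count of 6 lower in ACD1 against D1 became 5 with DESeq2, 4 on either TPM scale, 4 without ACD1 replicate 1 or D1 replicate 2, and 5 without ACD1 replicate 2 or D1 replicate 1. No alternative called a TCA cycle gene higher or one of the 23 lower in that comparison. Against D0, ACD1 was higher for several genes after the triose steps: Eno1 at 0.85 ± 0.03, Ldha at 0.77 ± 0.03, Pgam1 at 0.40 ± 0.04 and Gapdh at 0.38 ± 0.03 on the log2 scale, with the largest edgeR adjusted p at 1.36e-11. Pgk1 and Eno3, also after them, were not called. The rise was not confined to these steps. Tpi1 was called higher at 0.49 ± 0.04, and so were the earlier Slc2a1 at 0.37 ± 0.07, Pfkl at 0.37 ± 0.07 and Aldoa at 0.22 ± 0.03. The Pfkl call was lost on both TPM scales. ACD1 remained below D0 for Hk3 and G6pdx and for Pfkfb4 at -0.996 ± 0.11, Pfkfb3 at -0.95 ± 0.11, Idh1 at -1.05 ± 0.06 and Pgd at -0.52 ± 0.03, with the largest edgeR adjusted p at 5.18e-09.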

How the data were processed

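Members and gene lists were chosen with earlier results of these data known. The submitters' processing notes name Trimmomatic 0.39, STAR, RSEM 1.3.1, DESeq2 1.26.0 and the build GRCm38 (mm10). Sources used here give neither the annotation nor strand use. Per the labels, RNA was purified by miRNeasy with DNase, and libraries used a SMARTer mRNA-seq kit.

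The authors deposited RSEM expected counts, not normalized, and TPM and FPKM, which they scaled for length and library total. A whole number lay within 0.005 of 97.1% of expected counts. FPKM served only as an alternative for isoenzyme shares, and transcript FPKM were not used here. Replicate 1 is the title that ends in 1, replicate 2 the one without a number. Libraries of a group differed by more than counting noise (chi-square per gene 1.93 in ACD1, 2.60 in D1, 2.16 in D0).

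Rounded expected counts were tested with edgeR 4.0.16 (R 4.3.3): filterByExpr (minimum count 10, total 15; 12224 genes), TMM, and a quasi-likelihood fit of 3 group means to 6 libraries (3 residual and 29.5 prior degrees of freedom), with Benjamini-Hochberg adjustment over all genes tested and calls under 0.05. Standard errors are the log2 fold change over the square root of F, without sign. A permutation test of 2 against 2 libraries reaches a two-sided p of 0.333 at best. Shares have no test. All 45 members may be named, those called at 1.5-fold or more with every library, and of each further list at most 4 by adjusted p per comparison. Names outside this rule are named after their values were seen. One gene of a further list is counted but not reported here. Alternatives were RLE factors, DESeq2 1.42.0, no filter, 5 CPM in 2 libraries, only the 2 groups compared, the replicate block, limma 3.58.1 on log2(TPM + 0.1) and log2(TPM + 1), near-identical copies added, and each library left out. Coordinates and transcripts are from GENCODE M21, promoters from RefSeq (GRCm38.p6). The fitting code was tested on simulated data.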

Additional observations from a re-analysis of the deposited data

How the results depend on the processing

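In D1 against D0 and in ACD1 against D0 the counts of members called stayed within 1.5 times the reported ones under all 15 alternatives. The acetate comparison, where changes were smaller, moved more. In ACD1 against D1, 26 members were called, 18 higher and 8 lower. With limma on log2(TPM + 0.1) and on log2(TPM + 1) there were 13 each, 9 higher and 4 lower. DESeq2 left 5 lower. Leaving out single libraries gave 18 to 26 members, 13 to 18 higher and 4 to 8 lower, with 5 lower without ACD1 replicate 1, 5 without ACD1 replicate 2 and 4 without D1 replicate 2. All genes called in that comparison were 3717, 2462 with DESeq2, 1843 and 1908 on the log2(TPM + 0.1) and log2(TPM + 1) scales, and 2675 to 3687 with a library left out. The cause was not tested. Calls held in every alternative for 9 of 18 members higher and 3 of 8 lower in ACD1 against D1, 15 of 19 and 14 of 17 in D1 against D0, and 16 of 20 and 10 of 13 in ACD1 against D0. Ldhb was not tested at 5 CPM. Another scaling moved the median of all genes by less than 0.1.

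The replicate numbers are only titles: replicate differences correlated at -0.01 between ACD1 and D1, -0.06 between ACD1 and D0 and -0.03 between D1 and D0. With a replicate block the counts were 18 higher and 8 lower in ACD1 against D1, 19 and 17 in D1 against D0, and 21 and 13 in ACD1 against D0.

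No member called in the reported fit changed sign. Values near 0 that changed sign, called under no setting except Pgls in ACD1 against D0 without D0 replicate 2, were on the log2 scale, in ACD1 against D1 with log2(TPM + 0.1) or log2(TPM + 1), Pfkl at -0.033 in both, Tpi1 at -0.014 in both and Ogdh at -0.031 in both, and in D1 against D0 Pkm at 0.0011 with no filter, 0.00025 at 5 CPM and 0.012 with only the 2 groups compared, and Tkt at 0.0049 with only those groups. With single libraries left out, ranges that crossed 0 were, in ACD1 against D1, Pfkl -0.010 to 0.12, Aldoc -0.24 to 0.042, Tpi1 -0.020 to 0.032, Pfkfb3 -0.12 to 0.087, Ldhb -0.0031 to 0.62, Tkt -0.037 to 0.0070, Ogdh -0.027 to 0.051, Pcx -0.38 to 0.015. In D1 against D0 they were Hk2 -0.062 to 0.033, Pkm -0.0094 to 0.012, Tkt -0.043 to 0.033, Sucla2 -0.056 to 0.12, and in ACD1 against D0 Eno3 -0.20 to 0.12, Pgls -0.25 to 0.077, Tkt -0.058 to 0.018, Idh3b -0.0039 to 0.13, Sucla2 -0.0081 to 0.17. Among further list genes, called values turned positive on the log2(TPM + 0.1) and log2(TPM + 1) scales for Sdha in ACD1 against D1, to 0.033 in both, and for Pdk1 in ACD1 against D0, to 0.11 and 0.10, neither being called there.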

Other observations

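Some neighbours of the pathway moved beyond what is described above. Tigar, a phosphatase known to lower fructose 2,6-bisphosphate and to favour the pentose phosphate pathway, had 53.3 and 54.8 CPM in ACD1, 50.3 and 52.8 CPM in D1, and 25.3 and 28.8 CPM in D0. It was higher in D1 than in D0 (log2 fold change 0.93 ± 0.09, edgeR adjusted p = 4.45e-11), where Pfkfb3 and Pfkfb4, which can make that activator, were lower. Their relatives Pfkfb1 and Pfkfb2 were not called there. Slc2a9, a carrier of urate, had 8.82 and 7.91 CPM in ACD1, 5.23 and 5.65 CPM in D1, and 24.9 and 22.1 CPM in D0, and fell in D1 against D0 (log2 fold change -2.11 ± 0.16, edgeR adjusted p = 1.66e-13). Its rise with acetate (log2 fold change 0.62 ± 0.19, edgeR adjusted p = 0.0115) was lost with DESeq2, on both TPM scales and without ACD1 replicate 1 or D1 replicate 1 (adjusted p 0.0104 to 0.102). Got2, the mitochondrial aspartate aminotransferase, had 332 and 321 CPM in ACD1, 278 and 271 CPM in D1, and 216 and 215 CPM in D0, rising in D1 against D0 (log2 fold change 0.35 ± 0.04, edgeR adjusted p = 8.64e-09) and again in ACD1 against D1 (log2 fold change 0.25 ± 0.04, edgeR adjusted p = 7.38e-06), unlike Mdh2, its partner in the malate-aspartate shuttle, which was lower in ACD1 than in D1. Eno1b, a near-identical copy of Eno1, was listed at 3.88 and 3.81 CPM in ACD1, 1.11 and 1.256 CPM in D1, and 0.9901 and 0.209 CPM in D0. Its higher value in ACD1 than in D1 (log2 fold change 1.69 ± 0.41, edgeR adjusted p = 0.00166) was lost on the log2(TPM + 0.1) scale (adjusted p 1.50e-04 to 0.132). Reads of Eno1b and Eno1 cannot be told apart with certainty.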
